A study of Caenorhabditis elegans with 13 samples.

Results

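miR-63-3p (cel-miR-63-3p in the count tables) is the 3p arm of the C. elegans mir-63 hairpin. It is 1 of 434 mature miRNAs counted in 13 small RNA libraries of whole worms. It was chosen by name, with earlier results of these libraries known, because its level rises through adult age. That rise is therefore described here without a test, and tests are given only for what the choice did not use. All animals were of the N2 strain, the standard laboratory wild type. AL animals, fed ad libitum, were sampled on adult days 2, 4, 6, 8 and 10. Animals on CR or IF, 2 regimens that the labels abbreviate without describing, were sampled on days 4, 6, 8 and 10. There was 1 library for each diet and day, so no level has a replicate at its own diet and day. Nothing in the labels tells if separate cultures were used, so errors here measure only the spread between these libraries. The libraries held 2639586 to 5143918 reads on miRNAs.

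A miRNA is cut from a hairpin precursor that yields a 5p and a 3p strand. One strand is usually kept in an Argonaute protein and guides it to messenger RNAs, while the other is mostly degraded. Target choice rests largely on the seed, the bases near the 5′ end of the guide, so miRNAs that share a seed are grouped into families. miR-63-3p belongs with miR-64-5p, miR-65-5p, miR-66-5p and miR-229-5p in such a family; this grouping is background knowledge, and sequences were not analysed here. In the WBcel235 assembly the mir-63 hairpin (WBGene00003291) lies on the minus strand of chromosome X, from 17598765 to 17598868. No protein-coding gene contains it. The nearest are lec-9, a galectin gene on the plus strand 1618 bp away, and frpr-7 on the minus strand 18885 bp away on the other side. Its relatives are on another chromosome: mir-229, mir-64, mir-65 and mir-66 lie in that order on the plus strand of chromosome III, between 2172452 and 2173206, all within gcn-1.

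Whole worms should hold miRNAs of many tissues, and 15 hairpins known from muscle, intestine, neurons, or oocytes and embryos were checked. The arm with more reads over all libraries stood for each hairpin, which was miR-124-5p for mir-124. Each of these arms had at least 2 reads in every library, from the scarce neuronal lsy-6-3p (2 to 14 reads) to miR-36-3p of the oocyte and embryo set (1491 to 600155 reads). In bulk RNA of this kind, fewer cells of a type and less RNA per cell cannot be told apart.

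miR-63-3p climbed from 49th in abundance among the 434 miRNAs on day 2 to between 11th and 15th on day 10. In AL worms it had 1882, 3938, 4796, 18861 and 50736 reads on days 2, 4, 6, 8 and 10. In CR worms the reads were 2721, 7365, 12816 and 90789 on days 4, 6, 8 and 10, and in IF worms 2069, 5276, 18199 and 48399. Reads went up at every step between neighbouring days in all 3 diets. As a share of all miRNA reads, the AL level went from 0.0452% on day 2 (95% Wilson interval 0.0433 to 0.0473%) to 1.04% on day 10 (1.03 to 1.05%). The day 10 share was 2.32% in CR (2.31 to 2.34%) and 1.33% in IF (1.32 to 1.34%). PCR copies are not independent molecules, so such intervals reflect counting error alone. Its rank was 36th to 51st on day 4, then 41st to 44th on day 6, 17th to 25th on day 8, and 11th, 11th and 15th in AL, CR and IF on day 10.

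Reads scaled to a common library size (CPM) by trimmed mean of M values (TMM), which sets the bulk of miRNAs equal between libraries, show the level jumping between days 6 and 8. The AL levels were 446, 1096, 982, 8970 and 11961 CPM on days 2, 4, 6, 8 and 10. The CR levels were 682, 1177, 6313 and 20508 CPM on days 4, 6, 8 and 10, and the IF levels 812, 1011, 6490 and 8990 CPM. All 6 libraries of days 8 and 10 lay above all 7 of days 2 to 6, with nothing between 1177 and 6313 CPM. Averaged over diets, the level was 863 CPM on day 4 (SD 212, n = 3 diets) and 1056 CPM on day 6 (SD 106), then 7257 CPM on day 8 (SD 1486) and 13820 CPM on day 10 (SD 5980). The step from day 6 to day 8 averaged 2.77 on the log2 scale (SD 0.39, n = 3 diets), against 0.31 (SD 0.47) from day 4 to day 6 and 0.86 (SD 0.73) from day 8 to day 10. In CR the last step was 1.70 on that scale, after 2.42 from day 6 to day 8, and in CPM it was the larger gain (6313 to 20508, after 1177 to 6313).

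**Figure D1:**
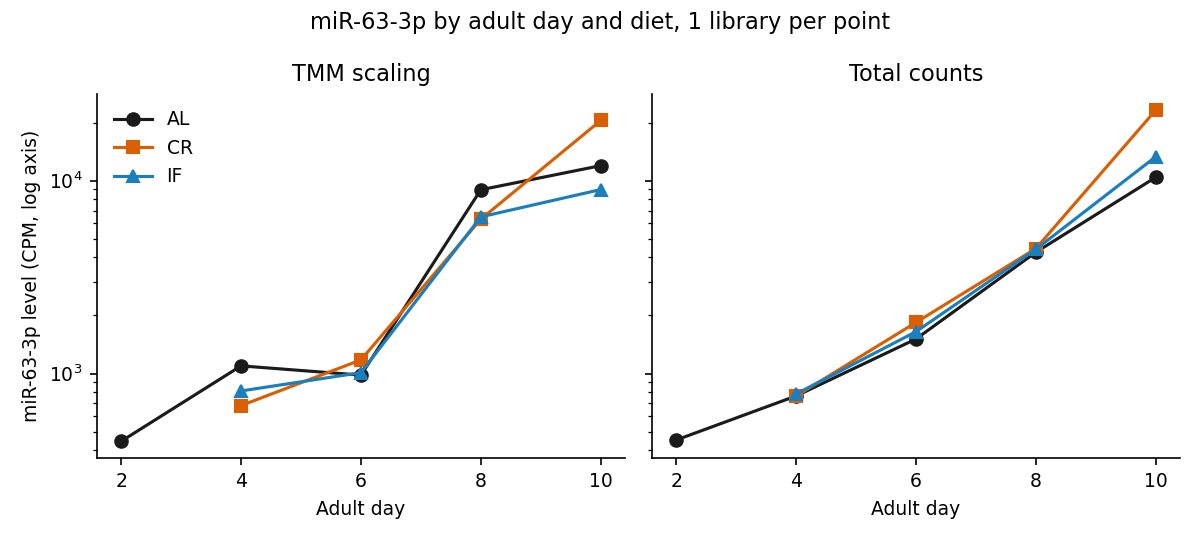
Level of miR-63-3p in CPM (log axis) against adult day, with TMM scaling on the left and total-count scaling on the right; each point is 1 library and lines join the days of a diet (AL, CR or IF). With TMM scaling the libraries of days 2 to 6 stay at or under 1177 CPM and those of days 8 and 10 at or above 6313 CPM. With total counts the largest step is from day 8 to day 10 in CR and IF, and from day 6 to day 8 in AL.

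How the rise is divided between days depended on the scaling, because the TMM factors were 1.54 to 1.63 in the day 6 libraries and 0.475 to 0.704 in the day 8 libraries. From day 6 to day 8 the level multiplied by 9.14 in AL, 5.36 in CR and 6.42 in IF with TMM, and by 2.82, 2.42 and 2.67 with total counts. The AL step from day 4 to day 6 changed direction: it was 0.896-fold with TMM and 0.794-fold with DESeq2 size factors, but 1.97-fold with total counts and 1.01-fold with total counts that leave out the 3 most abundant miRNAs. The other 9 steps were upward under all 4 scalings. From day 8 to day 10 the level multiplied by 1.33 in AL, 3.25 in CR and 1.39 in IF with TMM. With total counts it multiplied by 2.45, 5.22 and 3.02. With both kinds of total counts that step was the largest in CR and IF. With TMM and DESeq2 size factors the step from day 6 to day 8 was the largest in each diet. The day 4 to day 10 rise depended less on the scaling: 10.9-fold in AL, 30.1-fold in CR and 11.1-fold in IF with TMM, and 13.6-fold, 30.4-fold and 17.0-fold with total counts. From day 2, sampled in AL alone, the rise to day 10 was 26.8-fold with TMM and 23.0-fold with total counts.

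Set in order, the 13 TMM levels ran from AL day 2 through a close group of 6 libraries of days 4 and 6, then the day 8 libraries, and ended with IF, AL and CR on day 10. Around a model of diet and day, miR-63-3p scattered with a residual SD of 0.39 on the log2 scale (6 degrees of freedom; the median over tested miRNAs was 0.52). Of the 12 gaps between neighbours in the order, 7 were smaller than that. Neighbouring libraries within the group of days 4 and 6 did not differ beyond that spread, nor did CR day 8 and IF day 8, nor AL day 8 (8970 CPM) and IF day 10 (8990 CPM).

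Fitted as a straight line in day with a common slope for the diets, miR-63-3p went up by 0.70 log2 units per day (SE 0.09, 13 libraries). Fitted diet by diet, the slope was 0.64 (SE 0.14) in AL, 0.85 (SE 0.20) in CR and 0.65 (SE 0.20) in IF. With day as a random block, which allows for libraries of a day moving together, the common slope was 0.66 (SE 0.12). The edgeR slope of 0.70 was the 9th highest of 214 miRNAs tested, whose edgeR slopes ran from -1.02 to 1.17 with a median of 0.04. The steepest was that of miR-62 (1.17, SE 0.39), whose SE was larger. For scale, 29 of the 214 slopes (13.6%) had an adjusted p under 0.05 by edgeR, of which 14 were rising (6.54% of all) and 15 falling (7.01%). With day as a random block, limma-voom passed 4 of 214 (1.87%).

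**Figure D2:**
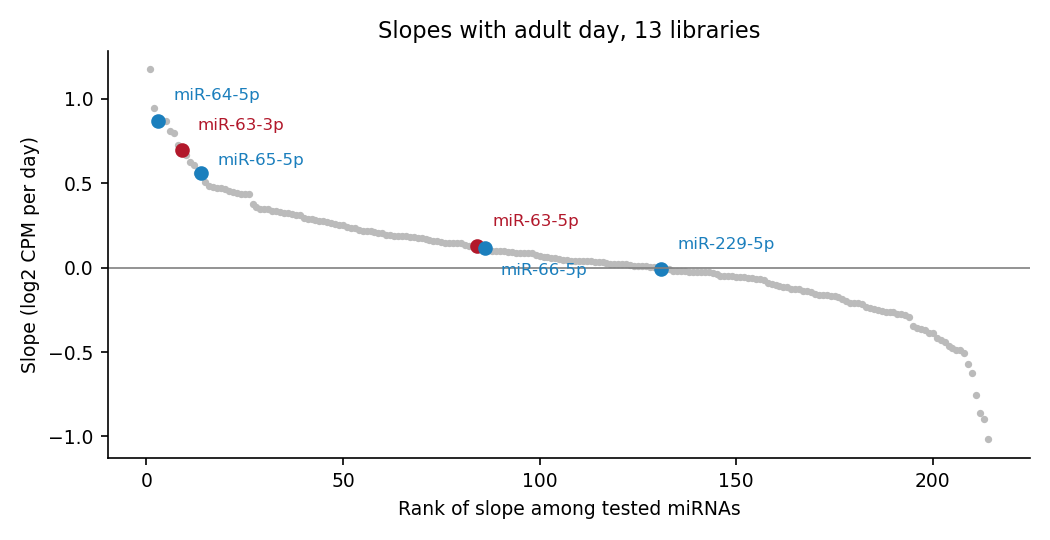
Slope with adult day (log2 CPM per day, vertical axis) of the 214 tested miRNAs, ordered from highest to lowest (rank, horizontal axis); grey points are single miRNAs, red marks the arms of mir-63 and blue its relatives. miR-63-3p is 9th with 0.70, close to miR-64-5p and miR-65-5p, while miR-63-5p, miR-66-5p and miR-229-5p lie near 0.

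The diets were compared to ask whether the miR-63-3p level differs between animals of the same age. No difference was detectable. On day 4 the level was higher in AL (1096 CPM) than in CR (682) or IF (812), on day 6 the 3 diets lay between 982 and 1177 CPM, on day 8 AL was again highest, and on day 10 CR was highest (20508 CPM, against 11961 in AL and 8990 in IF). Over days 4 to 10 the mean was 5752 CPM in AL (SD 5578, n = 4 days), 7170 in CR (SD 9249) and 4326 in IF (SD 4073). These SDs hold the rise with age, so they do not measure the error of a comparison between diets. The ranges of all 3 overlapped, but each spans that rise, so the overlap does not bear on diet.

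In a model of diet and day on the 12 libraries of days 4 to 10, the log2 difference was -0.32 (SE 0.34) for IF against AL, with an edgeR adjusted p of 0.565. IF was below AL on 3 of 4 days. For CR against AL it was -0.02 (SE 0.34; edgeR adjusted p = 0.995), with CR below AL on days 4 and 8 and above on days 6 and 10. For CR against IF it was 0.30 (SE 0.34; edgeR adjusted p = 0.760). These errors leave room for sizeable differences: 2 SE either way spans 0.4996-fold to 1.28-fold for IF against AL, 0.614-fold to 1.59-fold when CR is set against AL and 0.768-fold to 1.99-fold when it is set against IF. In the same fits 30 of 212 miRNAs (14.2%) passed for IF against AL and 0 (0%) for each of the other comparisons; at an unadjusted p under 0.05 there were 39 when CR was set against AL and 18 when it was set against IF, and DESeq2 passed 21 and 0 in these comparisons. With total counts the median difference of all miRNAs moved up by 0.42 for each of IF and CR against AL. The miR-63-3p values became 0.13 in IF (edgeR adjusted p = 0.786) and 0.39 in CR (edgeR adjusted p = 0.440), and relative to that median they were -0.32 and -0.11. On that scale the 3 diets lay closer together on days 4 and 8. AL had 766, 1511, 4257 and 10412 CPM on days 4, 6, 8 and 10, CR 765, 1841, 4446 and 23224, and IF 784, 1649, 4409 and 13309. IF was then above AL on 4 of 4 days, the reverse of its side on 3 of 4 days with TMM.

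**Figure D3:**
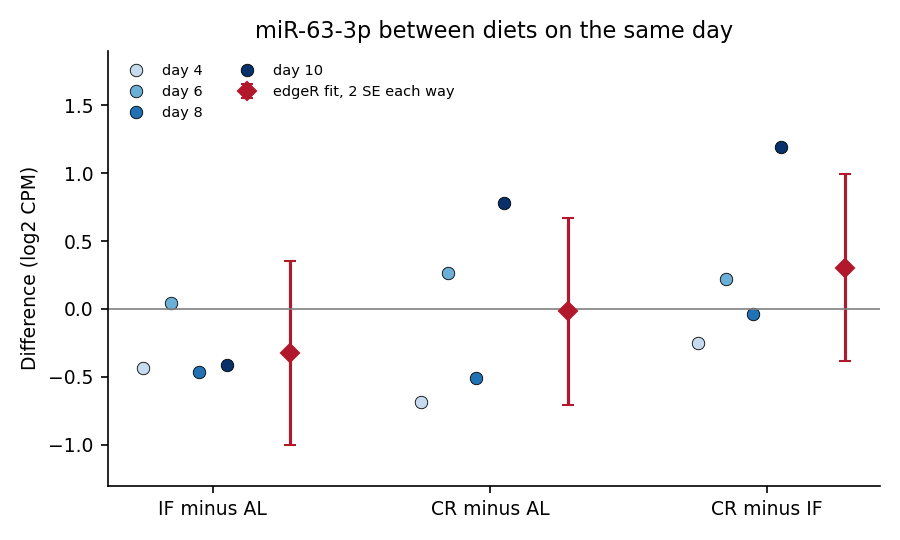
Difference in miR-63-3p between diets on the same day (log2 CPM, vertical axis) for the 3 pairs of diets; circles are single days and red diamonds the edgeR estimates with bars of 2 SE either way. All 3 bars cross 0, and the day 10 points of CR lie furthest above it (0.78 over AL and 1.19 over IF).

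The daily rise was also compared between diets. On days 4 to 10 the highest and lowest of the 3 slopes were 0.19 log2 units per day apart, and the diet-by-day term had an edgeR adjusted p of 0.999 (unadjusted p = 0.725). No miRNA (0%) passed that test, and 1 of 212 had an unadjusted p under 0.05. The CR value of day 10 is a single library; without it the common slope was 0.64 (SE 0.11).

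The other arm of the hairpin did not follow from day 6 to day 8. miR-63-5p, the strand of mir-63 that is mostly lost, had 78, 74, 138, 43 and 190 reads in AL on days 2, 4, 6, 8 and 10. It had 114, 148, 41 and 167 reads in CR and 42, 166, 73 and 230 in IF on days 4, 6, 8 and 10. Its lowest count in AL and in CR was that of day 8, when miR-63-3p was already high. In CPM with TMM scaling it averaged 27.9 on day 6 (SD 4.08, n = 3 diets), 22.2 on day 8 (SD 3.30) and 41.8 on day 10 (SD 3.64). Its slope was 0.13 log2 units per day (SE 0.07), against 0.70 for miR-63-3p in the same fit. From day 6 to day 8 the 5p level was 0.724-fold in AL, 0.854-fold in CR and 0.819-fold in IF, and total counts gave lower values still (0.223, 0.385 and 0.341). From day 8 to day 10 the 5p level went up, 2.19-fold in AL, 1.87-fold in CR and 1.64-fold in IF with TMM, and 3.004-fold to 4.02-fold with total counts. The TMM values of miR-63-3p at that step were 1.33-fold in AL, 3.25-fold in CR and 1.39-fold in IF, so the 5p arm gained more in AL and IF. Its day 10 level was above its day 4 level in all 3 diets (2.17-fold in AL, 1.32-fold in CR and 2.59-fold in IF with TMM).

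The ratio of the arms needs no scaling. There were 24.1 reads of miR-63-3p for each read of miR-63-5p in AL on day 2, then 53.2, 34.8, 439 and 267 on days 4, 6, 8 and 10. In CR the ratio was 23.9, 49.8, 313 and 544 on days 4, 6, 8 and 10, and in IF it was 49.3, 31.8, 249 and 210. All 7 libraries of days 2 to 6 thus lay under all 6 of days 8 and 10. As a share of the reads of the hairpin, the 3p arm made up 96.0% in CR on day 4 (95% Wilson interval 95.2 to 96.6%) and 99.8% on day 10 (99.79 to 99.84%). The log2 ratio went up by 0.57 per day (SE 0.11, 13 libraries). That SE takes the libraries as independent, without a block for day.

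Other hairpins give the setting for this. In 64 hairpins with both arms tested, the ratio of the major to the minor arm changed by a median of 0.16 log2 units per day, and mir-63 ranked 9th. Between days 6 and 8 the ratio went up in all 3 diets in 24 of the 64, and mir-63, with a mean of 3.08 log2 units, ranked 15th. Ratios moved widely both ways at that step, from -6.52 for mir-41 to 7.40 for mir-44, with a median of 0.16. mir-65 and mir-229 had larger changes at that step (4.64 and 4.92), while mir-64 had -0.01.

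**Figure D4:**
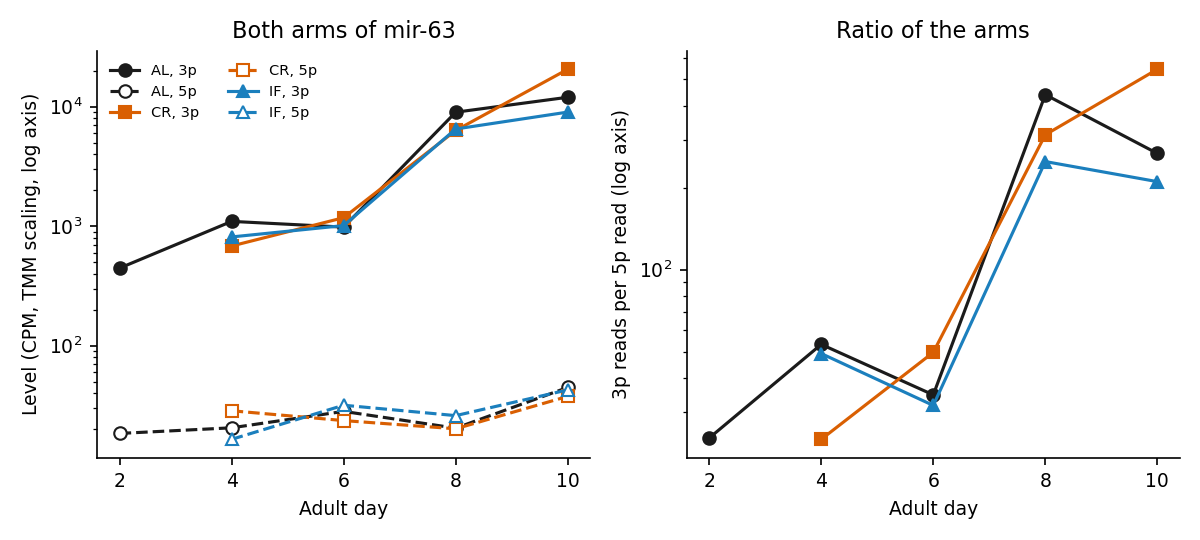
Left, levels of miR-63-3p (filled symbols) and miR-63-5p (open symbols) in CPM with TMM scaling (log axis) against adult day for AL, CR and IF, 1 library per point; right, reads of miR-63-3p per read of miR-63-5p (log axis). The 5p arm stays between 16.5 and 44.8 CPM in all libraries, and the ratio is at most 53.2 on days 2 to 6 and at least 210 on days 8 and 10.

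Of the 4 relatives, miR-64-5p and miR-65-5p rose with day, and miR-66-5p and miR-229-5p did not pass the test. Both calls were lost with day as a random block (limma adjusted p = 0.0520 for miR-64-5p and 0.0886 for miR-65-5p) and without the day 4 libraries (edgeR adjusted p = 0.0666 and 0.0817). Whether the slopes of the relatives differ from each other was not tested. From day 6 to day 8 all 4 went up in 3 of 3 diets with TMM, by means of 2.97 log2 units for miR-64-5p (SD 1.47), 2.50 for miR-65-5p (SD 0.57), 2.14 for miR-66-5p (SD 0.51) and 1.83 for miR-229-5p (SD 0.33). With total counts these rises were smaller. miR-66-5p was then 0.977-fold in AL at that step. The other values were upward, from 1.24-fold for miR-229-5p in CR to 7.43-fold for miR-64-5p in AL. With TMM these 2 values were 2.75-fold and 24.1-fold. miR-64-5p had 333, 920, 2646, 63778 and 74964 CPM in AL on days 2, 4, 6, 8 and 10. It had 863, 5479, 18177 and 28440 CPM in CR and 5901, 4925, 29341 and 13068 in IF on days 4, 6, 8 and 10. IF was thus the highest diet on day 4 and the lowest on day 10, although its own level rose 2.21-fold between those days. Its slope was 0.87 log2 units per day (SE 0.17; edgeR adjusted p = 0.00361).

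miR-65-5p was the relative closest to miR-63-3p in level. In AL it had 370, 907, 1315, 6195 and 6243 CPM on days 2 to 10, in CR 688, 907, 3906 and 11243, and in IF 1156, 768, 6855 and 2068. There were 0.703 to 1.92 reads of miR-63-3p per read of miR-65-5p in 12 libraries and 4.35 in IF on day 10. Its slope was 0.56 (SE 0.11; edgeR adjusted p = 0.00361).

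miR-66-5p, the most abundant member, had a slope of 0.12 (SE 0.13; edgeR adjusted p = 0.580) and miR-229-5p one of -0.01 (SE 0.09; edgeR adjusted p = 0.964). With TMM miR-66-5p was highest on day 8, at 99948 to 109116 CPM in the 3 diets, and lay between 15633 and 77968 CPM in the other libraries. With total counts day 8 was still highest in CR (76846 CPM) and IF (67898 CPM), but AL was highest on day 4 (54474 CPM, against 49262 on day 8). Hence 2 of 4 relatives rose, against 6.54% rising over all miRNAs tested. With day as a random block 0 of 4 passed, against 1.87% over all. The 4 slopes had a median of 0.34, against 0.04 over all. How reads that match several of these related miRNAs were assigned is not given in the sources used here.

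**Figure D5:**
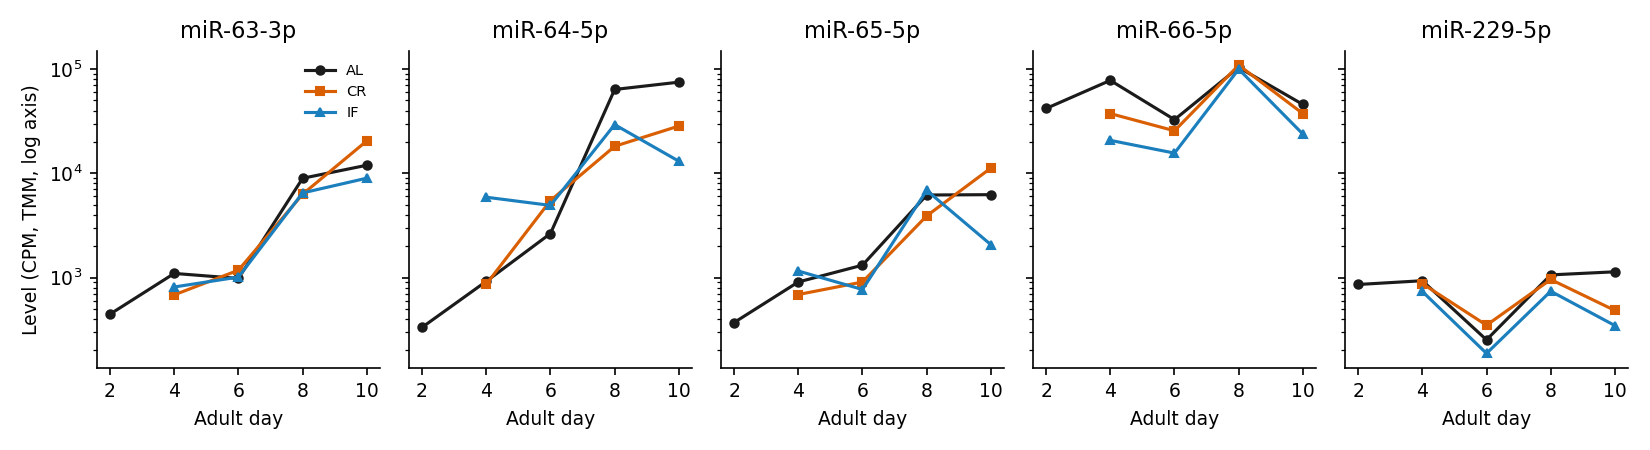
Levels of miR-63-3p and its 4 relatives in CPM with TMM scaling (log axis) against adult day in AL, CR and IF, 1 library per point. In AL, miR-63-3p, miR-64-5p and miR-65-5p start at 333 to 446 CPM on day 2 and end at 6243 CPM or more on day 10. In IF, miR-64-5p and miR-65-5p peak on day 8 (29341 and 6855 CPM) and end at 13068 and 2068 CPM on day 10. miR-66-5p peaks on day 8 and miR-229-5p dips on day 6 in all 3 diets.

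Within the family, miR-63-3p took a growing share of the reads. In AL it held 1.02% of the reads of the 5 members on day 2, then 1.34%, 2.59%, 4.88% and 8.54% on days 4, 6, 8 and 10. In CR the shares were 1.68%, 3.51%, 4.56% and 20.9% on days 4, 6, 8 and 10, and in IF they were 2.77%, 4.49%, 4.53% and 18.6%. The share went up at every step in all 3 diets, but the IF step from day 6 to day 8 was within counting error. Its 95% Wilson intervals were 4.37 to 4.61% on day 6 and 4.46 to 4.59% on day 8. The 95% Wilson intervals of the day 10 shares were 8.47 to 8.61% for AL worms, 20.8 to 21.0% for CR worms and 18.5 to 18.8% for IF worms. They cover counting error within 1 library per diet, and the diets were not compared by a test on this share. miR-64-5p held 53.5% of the family reads in AL on day 10, against 29.0% in CR and 27.1% in IF. Its share had grown too, from 0.758% in AL on day 2, 2.13% in CR on day 4 and 20.1% in IF on day 4. The log2 ratio of miR-63-3p reads to miR-64-5p reads changed by -0.14 per day (SE 0.14, 13 libraries). The ratio to miR-65-5p changed by 0.17 (SE 0.07), to miR-66-5p by 0.61 (SE 0.08) and to miR-229-5p by 0.70 (SE 0.06). The SEs of these ratios take the libraries as independent, without a block for day. miR-66-5p held 95.4% on day 2 and 32.7%, 38.1% and 49.3% in AL, CR and IF on day 10. There were 94.0 reads of miR-66-5p for each of miR-63-3p in AL on day 2, and 3.83, 1.82 and 2.65 in AL, CR and IF on day 10.

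None of the 4 relatives passed in any diet comparison (edgeR adjusted p from 0.0624 to 0.996). The value nearest to the threshold was that of miR-66-5p for IF against AL, -1.003 (SE 0.34).

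The miRNAs whose course was most like that of miR-63-3p were ranked by Pearson r of log2 CPM over the 13 libraries, among 161 with a mean of at least 10 CPM. These correlations describe libraries that share days and depth and carry no test. They were miR-65-5p (r = 0.94), miR-786-3p (0.89), an intestinal miRNA, miR-4937 (0.89), miR-64-5p (0.89), miR-238-3p (0.88), whose loss is known to shorten lifespan, and miR-86-5p (0.86). miR-786-3p had 36.7 CPM on day 2 and 169 to 251 CPM on day 10, and miR-238-3p had 3548 CPM on day 2 and 11961 to 31412 on day 10. miR-63-5p was 33rd (r = 0.53), miR-66-5p 57th (0.39) and miR-229-5p 72nd (0.19). At the other end were miR-38-5p (r = -0.95), miR-1830-3p (-0.90) and miR-36-3p (-0.83). miR-36-3p had 88308 CPM on day 2 and 2133 to 3052 on day 10. miR-38-5p had 54 to 365 reads per library on days 2 to 6 but only 0 to 7 on days 8 and 10. Those late counts are near the floor of 3 reads, so its levels there are poorly measured.

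miR-38-5p and miR-36-3p come from the mir-35 family of oocytes and embryos, whose summed level moved with day as well. The 8 major arms of that set summed to 146187 CPM on day 2 and to 168372 to 411689 CPM on day 4. The sums were 99793 to 192581 CPM on day 6, then 38724 to 93349 CPM on day 8, and 74250 to 108751 CPM on day 10. With total counts day 8 was also lowest in each diet, at 18380 in AL, 33042 in CR and 63415 in IF. Of the 8, 1 fell with day (miR-36-3p, slope -0.89, SE 0.16; edgeR adjusted p = 0.00281), against 7.01% falling over all tested, and 0 rose, against 6.54%. That call was kept with day as a random block (limma adjusted p = 0.00417). The 3 intestinal arms summed to 937 CPM on day 2, 503 to 1666 on days 4 and 6, and 2284 to 3184 on days 8 and 10 with TMM. With total counts the sum went down between days 6 and 8: AL had 1231 and then 1220 CPM, CR 2606 and then 2201, and IF 2492 and then 1862. Of the 3, 1 rose (miR-786-3p, slope 0.46, SE 0.10; edgeR adjusted p = 0.00799), against 6.54% over all tested, and its call was lost with day as a random block (limma adjusted p = 0.109). Of the 3 neuronal arms, which summed to 7.79 to 55.1 CPM, 1 rose (miR-791-3p, slope 0.32, SE 0.10; edgeR adjusted p = 0.0423), against the same 6.54%. That call too was lost with day as a random block (limma adjusted p = 0.463). Muscle miR-1-3p did not pass, and stood at 57933 to 94789 CPM on day 8 and 2288 to 22415 in the other libraries. The part of these tissues in the level of miR-63-3p was not tested.

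Of 11 miRNAs linked to lifespan or adult aging, 4 passed with day in the same fit (13.6% over all tested). All 4 calls were lost with day as a random block (limma adjusted p from 0.0929 to 0.3465; 1.87% passed over all) and without the day 4 libraries. miR-83-3p (slope 0.46, SE 0.10; edgeR adjusted p = 0.00530) and miR-238-3p (0.51, SE 0.12; edgeR adjusted p = 0.00814) rose. let-7-5p (-0.23, SE 0.07; edgeR adjusted p = 0.0423) and miR-34-5p (-0.51, SE 0.12; edgeR adjusted p = 0.0113) fell. The 7 others had slopes from -0.48 for miR-239a-5p to 0.22 for miR-228-5p and included miR-71-5p, which promotes long life (-0.05, SE 0.19).

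One other hairpin lies within 10 kb of mir-63, mir-2217b-1, 9358 bp away on the opposite strand. Its arm miR-2217b-3p had 2 to 30 reads per library and a slope of -0.07 (SE 0.11; edgeR adjusted p = 0.738).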

How the data were processed

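The 13 deposited tables hold unscaled read counts for 447 pairs of a miRNA and its precursor, as the file headers show. Per the labels' protocols, RNA of 18 to 30 nt was gel-selected and prepared with an Illumina small RNA kit; the sources used here name no aligner, counter, database release or filter. Where a miRNA was listed under several precursors, its highest count was kept (at most 0.219% of reads removed); both arms of mir-63 had 1 entry. A floor of 3 reads is 0.583 to 1.14 CPM.

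Counts were fitted with edgeR 4.0.16 in R 4.3.3 (TMM, 10 reads in 4 libraries, two-sided quasi-likelihood tests, Benjamini-Hochberg adjustment over all tested miRNAs, threshold 0.05). The fits were also run on simulated counts drawn independently for each library. Such counts cannot show how the tests behave when libraries of a day move together. Diets were compared on 12 libraries with day as a factor, age on 13 with a diet term and numeric day. The edgeR SE is the log2 estimate over the square root of F. Slopes of read ratios and their SEs came from ordinary least squares on log2 ratios with diet means removed. Log2 CPM used a prior count of 2, and the survey of arm ratios added 0.5 reads. limma 3.58.1 and DESeq2 1.42.0 served as alternatives.

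Day was the block because titles number libraries by day in every diet. With diet means removed, libraries of 1 day correlated at 0.55 to 0.89 (12 pairs). A change with age shared by the diets would also give such correlations.

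Positions come from the WBcel235 annotation of Ensembl release 115. Members and lists were chosen with earlier results of these data known. Named miRNAs were both arms of mir-63, its relatives, list members, and the 6 most and 3 least alike with a mean of at least 10 CPM; miR-62 was named after its value was seen.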

Additional observations from a re-analysis of the deposited data

Results flagged for a closer look

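miR-66-5p, the most abundant relative of miR-63-3p, stood apart on day 8 in CR and in IF. In CR it had 109116 CPM on day 8, and the gap to the next highest library was 0.858 of the range of the 4 CR days. In IF it had 99948 CPM on day 8, and that gap was 0.903 of the range. Both values are with TMM scaling; with total counts day 8 was also the highest day, at 76846 CPM in CR and 67898 CPM in IF. Dixon's 95% critical value was exceeded in 2 of 18 groups of 4 or 5 libraries examined, where chance flags about 1 in 20, and these groups are time courses in which days can differ. No group of miR-63-3p or miR-63-5p levels was singled out in this way.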

How the results depend on the processing

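The slope of miR-63-3p with day stayed between 0.65 and 0.73 in the 15 other settings tried and between 0.64 and 0.73 with each library left out. Of the diet comparisons, none passed in any setting. IF against AL turned to 0.13 with total counts, and ranged from -0.44 to -0.15 with each library left out. CR against AL was near 0 and turned positive with total counts (0.39), with total counts without the 3 most abundant miRNAs (0.016), without day 4 (0.13) and without day 8 (0.11). Without the day term it was 0.31, and with each library left out it ranged from -0.21 to 0.19. CR against IF kept its sign, from 0.04 without day 10 to 0.72 without the day term. Leaving out the day term changed no call of miR-63-3p between diets, but took the calls over all miRNAs for IF against AL from 30 to 0. That count was also 0 with day as a number, 6 without day 6, 14 with only the 2 diets fitted, 51 with DESeq2, and 7 to 36 with each library left out. The 29 calls with day became 65 with DESeq2, 58 without day 10, 17 with total counts, 15 without day 6, 4 with day as a random block, 3 without day 4, and 18 to 31 with each library left out. The count of 0 for CR against AL reached 22 with no low-count filter and 13 without the IF day 4 library; that for CR against IF was 0 in every setting. The difference of slopes between diets had an adjusted p of at least 0.966 in every setting and with each library left out. The count of relatives rising fell from 2 to 0 with day as a random block and without day 4, and was 2 with each library left out. The lifespan count fell from 4 to 0 in those 2 settings and to 2 without day 6 or without day 10; it was 6 with DESeq2, 5 with no diet term and 3 to 4 with each library left out. Of the 6 miRNAs most like miR-63-3p, 4 to 6 were shared under other scalings or Spearman's rho. The causes were not tested. With 1 library per diet and day, errors rest on the scatter of libraries around each model, not on depth.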
